A study of Rattus norvegicus with 4 samples.

Results

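The cultures described here were neonatal rat heart muscle cells that had received a control mimic, and the data are the library made from them alone, ranked by level over all 15731 genes of the deposited values. It is 1 of 4 libraries of the series, and the other 3 came from cultures that received a mimic of a human microRNA, namely miR-25, miR-93 or miR-106b. Where values of these 3 follow the control value without a name, their order is miR-106b, then miR-93, then miR-25. All 4 cultures were ventricular cardiomyocytes of newborn wild type Wistar rats, and the control mimic copied cel-miR-67, a worm microRNA. Ventricles were separated from atria and dissociated, cells that had not attached were taken after a 2 h plating step, grown in medium with 5% serum, transfected after 24 h and lysed 72 h later. The labels give the age as post natal day 1 in one field and as day 0 in the treatment text, and the mimic dose as 25 nM in the treatment text and as 25 mM in the extraction text. With 1 library per mimic no value has a replicate check, no difference between cultures was tested, and how many animals were pooled is not given in the sources used here.

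A heart muscle cell is built around the sarcomere, in which thin filaments of actin slide along thick filaments of myosin, anchored at the Z-disc and switched on by calcium through the troponin complex. Around birth rodent ventricles exchange several fetal protein forms for adult ones, such as slow skeletal for cardiac troponin I, and turn from glycolysis toward fatty acids as fuel. Cultures of such cells also hold fibroblasts and smaller numbers of vessel and immune cells, and the plating step is used because fibroblasts attach faster than muscle cells. Growth in serum is known to bring back fetal and stress genes, among them the natriuretic peptides.

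Levels are RPKM, reads scaled to gene length and to the size of the library, which allow genes of different length to be compared within a library. Because whole numbers lie behind the values, a whole count could be recovered for each gene, called its reads here. The study's methods describe gene counts that were rounded before scaling, so a count may be a rounded estimate. A factor shared by a gene's counts in every library and by its length cannot be detected. For such a gene the recovered count is too small by that factor, so its read share is too low and its interval too wide. Its RPKM is not affected. On the listed genes of the control library 15175185 reads fell, against 16460108 to 18797234 in the other 3. Recovered reads on listed genes, lowered by any such factors, made up 60.4% to 66.9% of the library size that the values imply. That size is not a whole number, so it may be a size adjusted by normalisation rather than a count of mapped reads, and any ratio of RPKM between libraries depends on it. Intervals in the text are 95% exact intervals from these reads. They cover counting error only, since reads without molecular identifiers are not independent molecules, and they leave out the spread between cultures, which was not measured. A share of RPKM is a gene's or list's part of the summed RPKM of the library, which weighs transcripts per length, while a share of reads also grows with transcript length.

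The control library was led by mitochondrial transcripts and by the genes of the contractile apparatus. Mt-co1, which encodes subunit I of cytochrome c oxidase in the mitochondrial genome, had the highest RPKM, 18554, and 5.26% of the summed RPKM. Cardiac actin Actc1 followed at 7073 RPKM (7044 to 7101) from 238789 reads, and the ventricular regulatory light chain Myl2 at 6838 (6789 to 6888). Among the 30 highest genes 8 were mitochondrially encoded and 8 belonged to the sarcomere and Z-disc lists. The rest included the elongation factor Eef1a1 (2769), the hormone gene Nppa (1860.4), the ATP synthase subunits Atp5b (1688) and Atp5a1 (968), the non-sarcomeric light chain Myl9 (1075), Gapdh (1042) and Actb (976). The 10 highest genes held 16.3% of the summed RPKM, the 100 highest 34.8% and the 1000 highest 67.04%. At the other end 154 genes were listed at 0, 4034 lay above 0 and at most at 1 RPKM, and these together held 0.366% of the summed RPKM, so 11543 genes above 1 RPKM carried nearly all of it.

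Among the 100 highest genes 23 encoded cytosolic ribosomal proteins, led by Rps2 (979) and Rplp0 (919), 12 sarcomere and Z-disc proteins, 8 nuclear genes of the respiratory chain, 9 mitochondrially encoded proteins and 4 enzymes of glycolysis. A further 14 were loci without a gene name, and all 1859 such loci together held 11.2% of the summed RPKM. AC115371.1 stood at rank 5 (4571 RPKM) and AC130940.1 at rank 12 (2214), and the gene table used here pairs no name with them. AABR07042359.1 and AABR07042397.1, ranks 23 and 28, had 37016 reads each in the control library and differed by at most 3 reads in the others. At a minimum of 100 control reads 10 pairs of genes had equal reads in all 4 libraries, among them Mfap4 of the fibroblast list with LOC102553715. Reads do not tell the members of such a pair apart, and why they are equal was not tested.

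**Figure D1:**
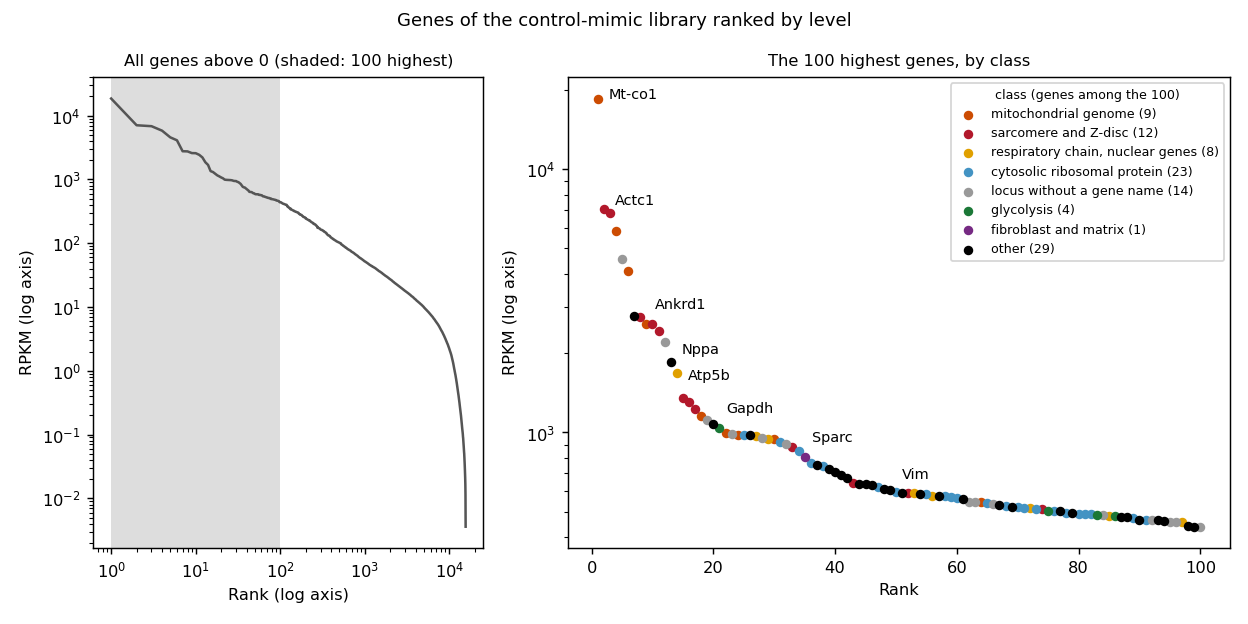
RPKM of the control-mimic library against rank, as a line over all genes above 0 with the 100 highest shaded (left, both axes logarithmic) and as points coloured by class, 1 per gene, for the 100 highest (right, logarithmic RPKM axis). Mt-co1 stands alone at the top at 18554 RPKM, 12 sarcomere and Z-disc genes lie among the 100 highest, and ribosomal protein genes fill much of the lower ranks.

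The 13 protein genes of the mitochondrial genome held 10.4% of the summed RPKM of the control library, and nuclear genes of the respiratory chain 4.99%. The mitochondrial genome encodes core subunits of the respiratory chain, and its genes are cut from long joint transcripts. Their levels were nevertheless uneven, from 230.7 RPKM for Mt-nd2 to 18554 for Mt-co1, an 80.4-fold range, and the 3 cytochrome oxidase genes Mt-co1, Mt-cox3 (5817) and Mt-co2 (4111) made up 77.3% of the group. The 7 subunits of complex I lay between 230.7 RPKM and 1159 for Mt-nd6, a gene on the opposite strand, whose reads cannot be told from those of the other strand because strand use in counting is not given in the sources used here. In the mimic libraries mitochondrial genes held 8.95%, 9.62% and 7.91% of the summed RPKM, less than in the control library in each case.

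Sarcomere and Z-disc genes together held 8.94% of the summed RPKM of the control library, against 7.25% for genes of cytosolic ribosomal proteins. Loci without a gene name were assigned to neither class. In the mimic libraries the ribosomal class was the higher, with 7.88% against 8.19%, 6.28% against 7.06% and 6.67% against 6.72%. The thin filament list, fixed as 11 genes, held 4.08% of the summed RPKM with a median of 413 RPKM. Behind Actc1 came Tnnc1, the calcium-binding troponin C of heart and slow muscle (2579.7), Tnnt2, the troponin T that ties the complex to tropomyosin (2433), Acta1 (587), and alpha-tropomyosin Tpm1 (512). Lmod2, which sets thin filament length, stood at 167 RPKM and the pointed-end cap Tmod1 at 49.8. All 11 members lay above 10 RPKM, the lowest being Tpm3 at 35.3.

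Both sarcomeric actin genes are under the control of serum response factor, which binds the CArG box (both strands searched; the pattern reads alike on both). The promoter of the most abundant nuclear gene and that of its fetal partner are shown with this box in capitals, 250 bases before to 50 bases after the RefSeq start, from the GRCr8 build, with Nppa, the hormone gene of the stressed heart, beside them with its TATAAA in capitals.
Actc1 (chr3:121271778-121272077, minus strand, 7073 RPKM): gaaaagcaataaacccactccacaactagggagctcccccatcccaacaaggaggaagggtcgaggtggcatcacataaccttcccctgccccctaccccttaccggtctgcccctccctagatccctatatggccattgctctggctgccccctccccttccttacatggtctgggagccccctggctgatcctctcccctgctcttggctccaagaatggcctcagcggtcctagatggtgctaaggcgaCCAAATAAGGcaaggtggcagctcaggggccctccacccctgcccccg
Acta1 (chr19:68784145-68784444, minus strand, 587 RPKM): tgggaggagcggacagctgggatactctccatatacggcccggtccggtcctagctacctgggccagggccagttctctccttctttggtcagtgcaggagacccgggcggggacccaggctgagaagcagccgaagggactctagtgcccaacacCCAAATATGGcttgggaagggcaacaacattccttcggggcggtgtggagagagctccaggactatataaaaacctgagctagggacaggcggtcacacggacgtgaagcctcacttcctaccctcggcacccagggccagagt
Nppa (chr5:163711934-163712233, plus strand, 1860.4 RPKM): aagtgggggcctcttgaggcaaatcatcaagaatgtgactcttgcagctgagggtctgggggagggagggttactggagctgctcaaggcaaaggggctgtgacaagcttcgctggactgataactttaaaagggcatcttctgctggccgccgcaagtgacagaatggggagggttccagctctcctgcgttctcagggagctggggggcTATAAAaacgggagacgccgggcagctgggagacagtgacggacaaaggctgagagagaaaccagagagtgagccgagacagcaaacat

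The CArG box of Acta1 starts 94 bases before the annotated start and its TATAAA 29 bases before it. The CArG box of Actc1 starts 2 bases after the annotated start and that window holds no TATAAA. The start used in these cultures was not measured, and a TATAAA outside the window would not be seen. Nppa has a TATAAA 39 bases before the start and no CArG box in this window. Of all 33469 promoters of this length 1.64% hold a CArG box, 3.29% a MEF2 site, 14.2% TATAAA and 11.6% AGATAA, on either strand, and a MEF2 site can overlap TATAAA. Over the 9773 promoters found for genes of the deposited table, from which the lists come, these shares were 1.27%, 1.48%, 7.20% and 6.26%. Among the 22 cardiomyocyte markers whose promoter was found, 3 had a CArG box, 6 a MEF2 site, 4 TATAAA and 3 AGATAA. Among the 14 fibroblast markers with a promoter none had a CArG box or a MEF2 site, 3 had TATAAA and 2 AGATAA. A match is a stretch of letters and not a bound site, and these shares were not tested.

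The thick filament list was led by Myl2, which alone made up 60.3% of its RPKM. The ventricular essential light chain Myl3 had 1351 RPKM, the motor genes Myh6 1307 and Myh7 1226, myosin-binding protein C Mybpc3 364 and the M-band protein Myom1 112. Myom2, the M-protein of mature muscle, was at 33.99, Myh7b at 3.86 and Mybphl, the lowest of the 12 found, at 0.561. Ttn is not listed under that symbol and was not analysed here, so the share of this list, 3.21%, leaves titin out. Myh6 and Myh7 are close copies of each other, and how reads matching both were counted is not given in the sources used here.

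The Z-disc and intermediate filament list held 1.64% of the summed RPKM. Ankrd1, a stretch-responsive ankyrin repeat protein that sits on titin, was far ahead of the other 13 members found at 2753 RPKM and made up 47.4% of the list. The small heat shock protein Cryab had 879.6, desmin Des 641, the muscle LIM protein Csrp3 437, Pdlim5 311, Myoz2 238 and sarcomeric alpha-actinin Actn2, the protein by which such cultures are often stained, 230.1. Telethonin Tcap (60.4), Flnc (60.4) and Ldb3 (32.8) were lower, and Mypn was lowest at 4.74. Nebl and Myot are not listed under those symbols.

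Calcium handling genes were led by calsequestrin Casq2, the calcium store protein of the cardiac reticulum, at 636 RPKM (629 to 642). The calcium pump Atp2a2 had 422, its inhibitor phospholamban Pln 374, the sodium-calcium exchanger Slc8a1 318, Srl 161, the release channel Ryr2 88.03 and the junctional protein Jph2 57.9. The L-type channel subunit Cacna1c stood at 7.82, Hrc at 3.16 and Fkbp1b at 1.54, the lowest of the 16. The store, the pump and its inhibitor thus all lay above the release channel.

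Transcription factors lay well below the sarcomere genes, with a median of 7.92 RPKM over 16 genes and none above 100. Tbx20 (48.9), Hand2 (44.9), Mef2a (36.6), Nkx2-5 (29.2), Srf (28.6) and Gata4 (23.1) were the highest, and all are known for their part in heart muscle gene expression. Mef2d (6.46) and Mef2c (4.97) were below Mef2a, and Tbx5 was at 3.01. Hand1 (0.0834, 2 reads), Isl1 (0.0180, 1 read), which marks cardiac progenitors, and Tbx3 (0.262), a factor of the conduction system, were near 0.

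**Figure D2:**
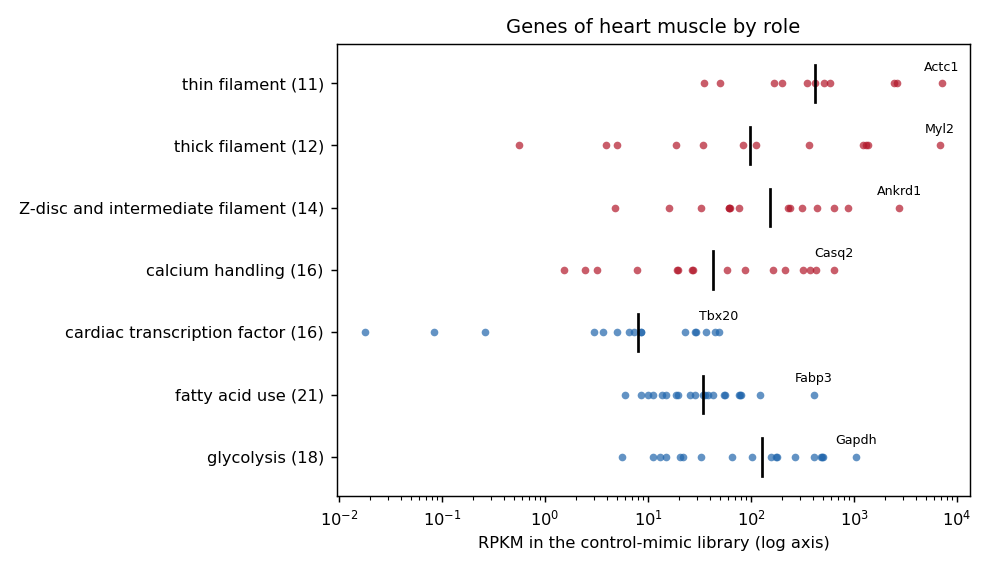
RPKM in the control-mimic library (logarithmic axis) of genes grouped by role, each point a gene, with a line at the median of the group and the highest gene named, and the number of genes found in brackets. Thin filament genes have the highest median, 413 RPKM, and cardiac transcription factors the lowest, 7.92.

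Fetal and adult isoforms stood side by side in the control library. Of 19 pairs fixed for comparison 18 had both members listed once, and in 12 the adult, ventricular or muscle form was higher and in 6 the fetal or widely expressed form. None of the 18 intervals of the ratio in the control library includes 1, but they cover counting error only. Cox7a1 is not listed and Cox7a2 is listed more than once, so that pair was left out.

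For the contractile proteins the balance differed by family. Myh7, the slow myosin that dominates before birth in the rat, reached 0.938 of the level of Myh6, the fast adult form (0.932 to 0.944). Slow skeletal troponin I Tnni1 was 1.17 times the cardiac form Tnni3 (1.14 to 1.21), at 413 against 351 RPKM. In both families the forms were thus near equal. Actc1 was 12.1 times the skeletal actin Acta1 (11.9 to 12.2), the ventricular light chain Myl3 16.2 times the fetal and atrial Myl4 (15.4 to 17.1), and Myl2 363 times the atrial Myl7 (341 to 387). Tnnt2 was 10656 times the slow skeletal form Tnnt1 (4896 to 29038), which had 6 reads and an RPKM of 0.228 (0.0838 to 0.497).

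For energy metabolism some pairs leaned to the form of striated muscle and others to the fetal or widely expressed form. The muscle creatine kinase Ckm was 4.34 times the brain form Ckb (4.07 to 4.62), the ADP/ATP carrier Slc25a4 2.79 times Slc25a5 (2.71 to 2.87) and the muscle glycogen phosphorylase Pygm 2.04 times Pygb (1.95 to 2.14). In contrast, Eno1 was 23.5 times the muscle enolase Eno3 (21.8 to 25.4), Pgam1 14.0 times Pgam2 (12.2 to 16.0) and Hk1 11.7 times the adult hexokinase Hk2 (10.8 to 12.7). The fetal glucose transporter Slc2a1 was 1.67 times the insulin-regulated Slc2a4 (1.53 to 1.83), whereas the muscle carnitine palmitoyltransferase Cpt1b was 1.85 times the fetal form Cpt1a (1.67 to 2.05). Cytochrome oxidase showed both patterns, since the heart form Cox6a2 was 1.78 times Cox6a1 (1.71 to 1.86) and the widely expressed Cox8a 8.06 times the muscle form Cox8b (6.90 to 9.46).

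Of the calcium channels, Cacna1h, a T-type calcium channel of the fetal heart, was at 1.94 RPKM against 7.82 for the L-type Cacna1c, a ratio of 0.249 (0.221 to 0.279). With 1 RPKM added to each this ratio was 0.334.

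**Figure D3:**
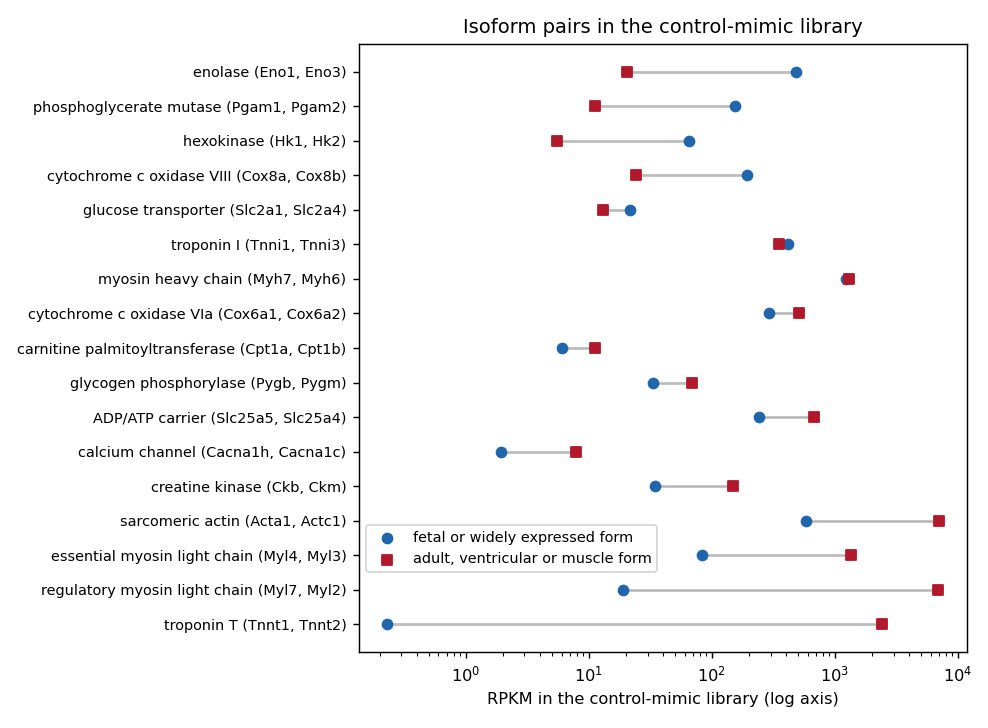
RPKM in the control-mimic library (logarithmic axis) of the isoform pairs described in the text, with circles for the fetal or widely expressed form and squares for the adult, ventricular or muscle form, ordered by their ratio. Enolase, phosphoglycerate mutase and hexokinase lean to the widely expressed form, troponin I and myosin heavy chain are near balance, and light chains and troponin T lean to the ventricular form.

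The order within a pair was the same in all 4 libraries for 14 of 18 pairs. The ratio of Myh7 to Myh6, 0.938 under the control mimic, was 1.27, 0.835 and 1.17 under the others, so it lay on both sides of 1. The ratio of Tnni1 to Tnni3 went from 1.17 under the control mimic to 0.943, 1.01 and 15.6, and in the last of these, miR-25, Tnni3 had 15.9 RPKM. Cox6a1 over Cox6a2 was 0.562 in the control library and 1.14, 1.28 and 2.02 in the others in the same order, so the control library was the only one of the 4 in which the heart form was higher. Cpt1a over Cpt1b was 0.541 in the control library and 0.626, 1.02 and 0.716 in the others, and only with miR-93 was it above 1. There its interval was 0.946 to 1.11, and that of Tnni1 over Tnni3 with miR-93 was 0.986 to 1.03, so on counting error alone these values cannot be told from 1.

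Genes of skeletal muscle that the heart does not normally use were mostly near 0, with 12 of 19 listed once and a median of 0.283 RPKM. The skeletal calsequestrin Casq1 was the exception at 127 RPKM from 5321 reads, and in the mimic libraries it stood at 167, 49.8 and 373. Mybpc2, the fast myosin-binding protein C, had 17.95 RPKM, and 13.4, 2.98 and 25.05 in the others. Embryonic myosin Myh3 was at 0.541, perinatal myosin Myh8 at 0.0199 from 2 reads, and Tnnt3 was listed at 0, which allows up to 0.0977 RPKM (3 reads). Myh2, Myh4, Tnni2, Mybpc1, Myod1, Myog and Mymk are not listed under those symbols.

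Fuel genes included both routes. All 18 glycolysis genes listed once lay above 1 RPKM, with a median of 129 and 1.13% of the summed RPKM, led by Gapdh (1042), Ldha (504), Aldoa (488) and Eno1 (482). Ldhb, the lactate dehydrogenase form favoured by the adult heart, was close to Ldha at 409. The 21 genes of fatty acid use had a median of 33.9 RPKM and 0.335% of the summed RPKM, of which the fatty acid binding protein Fabp3 (407) made up 34.5%. Behind it came the beta-oxidation enzymes Hadhb (122) and Hadha (78.4) and the electron carriers Etfb (80.6) and Etfa (76.1), while the entry gate Cpt1b stood at 11.1 and the uptake protein Cd36 at 35.8.

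The labelled cell type, ventricular cardiomyocytes, was set against its markers. All 28 cardiomyocyte markers listed once lay above 10 RPKM and 22 above 100, with a median of 398 RPKM. Together they held 8.64% of the summed RPKM and 7.63% of the reads (7.62% to 7.64%). The natriuretic peptides Nppa (1860.4 RPKM) and Nppb (636) were among the highest, and the lowest was the triadin gene Trdn at 19.4. In bulk RNA a lower list level can come from fewer cells of a type or from less RNA per cell, and these cannot be told apart, so a list's share is not a share of cells.

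Transcripts of fibroblasts were present at lower levels. The 22 fibroblast markers listed once had a median of 16.4 RPKM, 20 lay above 1, and they held 0.563% of the summed RPKM and 1.01% of the reads, so that the summed cardiomyocyte markers were 15.3 times the summed fibroblast markers and the medians differed by 24.2 times. Sparc, a matrix protein that several cell types make, accounted for 40.7% of the list at 808 RPKM. The collagens Col3a1 (327) and Col1a2 (284) were higher than Col1a1 (60.1, 58.7 to 61.4), Pcolce had 139 and periostin Postn 107. The receptor Pdgfra (5.54) and the transcription factor Tcf21 (15.9), which are more specific to fibroblasts, were lower, as were Dcn (16.04), Lum (5.52) and Dpt (1.38), and Mfap5 was lowest at 0.273.

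Genes that mark activated fibroblasts, several of which muscle cells also make, had a median of 63.2 RPKM over 14 genes, above that of the fibroblast list. Thbs1 (232), Acta2 (164), Postn and Ctgf (103) lay above 100 RPKM. Among the growth factors of this list Tgfb2 (61.8) and Tgfb3 (65.4) were far above Tgfb1 (0.763). The smooth muscle and pericyte list held 0.238% of the summed RPKM, of which Tagln (478) made up 57.0%. Tagln, Acta2 and Cnn1 (88.8) are also used by immature muscle cells and activated fibroblasts, while the smooth muscle myosin Myh11 was at 13.8 and the pericyte genes Rgs5 and Kcnj8 at 1.45 and 0.506.

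Endothelial and immune transcripts were scarce. The 16 endothelial markers listed once had a median of 0.995 RPKM and held 0.0107% of the summed RPKM, with the summed cardiomyocyte markers 808 times higher and their median 399.9 times higher. By reads the endothelial share was 0.0207%, against 7.63% for the cardiomyocyte markers. Eng, which fibroblasts also carry, was the only member above 10 at 15.6 RPKM, and the endocardial receptor Npr3 followed at 6.39. Egfl7 (3.27), Flt1 (3.21), Plvap (2.21) and Tek (2.09) came next. Kdr was at 1.26, Tie1 at 0.522, Cdh5 at 0.402 and Vwf at 0.225. Cldn5 was listed at 0, which allows up to 0.0928 RPKM (3 reads), and Pecam1 and Robo4 are not listed under those symbols. The 18 macrophage markers had a median of 1.42 RPKM and 0.00996% of the summed RPKM. Lyz2 (6.93), Tyrobp (4.39), C1qa (3.87) and the receptor Csf1r (2.76) were the highest, and Cd163 the lowest at 0.0574 from 6 reads. Of 12 markers of lymphocytes, granulocytes and mast cells only Kit was listed, at 2.37 RPKM, and Kit is not particular to these cells.

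Traces of other heart cells were measured too. All 9 epicardial markers lay above 1 RPKM, led by Msln (11.03), the retinoic acid enzyme Aldh1a2 (7.17) and Upk3b (4.49), with Wt1 at 1.14. The glial factor Sox10 had 0.0437 RPKM from 3 reads. The globins Hbb (3.34), Hba1 (2.46) and Hba2 (1.82) were low, and the red cell list as a whole held 112 reads.

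**Figure D4:**
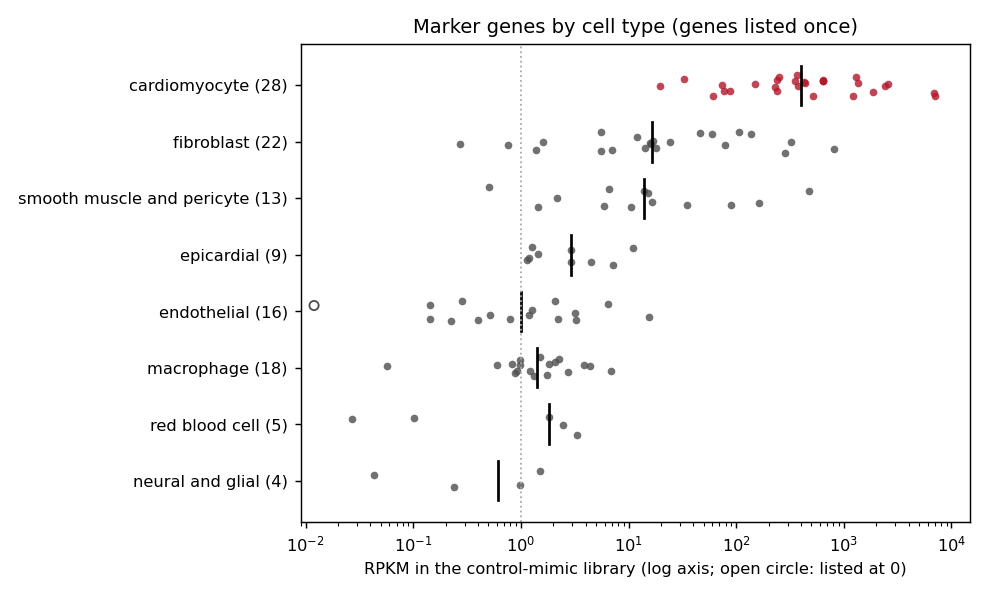
RPKM in the control-mimic library (logarithmic axis) of the markers of 8 cell types, each point a gene, with a line at the median of the list, a dotted line at 1 RPKM and an open circle for a gene listed at 0. Cardiomyocyte markers have a median of 398 RPKM and fibroblast markers of 16.4. The medians of endothelial, macrophage, red cell and neural markers are 0.995, 1.42, 1.82 and 0.611, with some members higher.

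The chamber of origin was read from atrial and ventricular genes. The labels describe removal of the atria, and the ventricular genes Myl2, Myl3 and Myh7 were all above 1000 RPKM, while the ventricular transcription factors Irx4 and Hey2 were at 8.47 and 3.63. Of 9 atrial genes 5 lay above 1 RPKM, Dkk3 (25.4), the calcium pump regulator Sln (19.1), Myl7 (18.8), Gja5 (8.12) and Stard10 (1.32). The atrial factor Nr2f2 (0.875), the growth factor Bmp10 (0.765) and the channel Kcna5 (0.0488, 2 reads) were below 1. Nppa, an atrial gene in the adult that fetal and stressed ventricles also make, was not counted in the list. Neither was the fetal and atrial light chain Myl4, which at 83.2 RPKM alone exceeded the summed level of the 9 atrial genes, 74.7 RPKM.

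Cell cycle transcripts were detectable in the control culture. All 18 proliferation genes lay above 1 RPKM, with a median of 21.7 and a range from Aurkb (4.18) to Pcna (60.5). Behind Pcna came the nucleotide enzyme Rrm2 (49.6), the topoisomerase Top2a (29.8) and the replication helicase subunit Mcm4 (28.4). The mitotic kinase Cdk1 (23.7) and the proliferation marker Mki67 (21.4) lay near the median, and cyclin Ccnb1 (10.4), Birc5 (6.82) and Plk1 (5.36) below it. Which cells carried them cannot be read from bulk RNA. Interferon response genes, which transfected nucleic acid can induce, had a median of 4.46 RPKM over 15 genes, with Irf7 (11.1) and Usp18 (10.6) highest and Rsad2 (0.361), Mx1 (0.399) and Ifit3 (0.433) below 1. No untransfected culture was analysed here.

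The ranking was largely shared by the other cultures. Of the 100 highest genes of the control library 87, 81 and 83 were among the 100 highest of the mimic libraries, and 70 genes were among them in all 4 libraries. Genes were counted as higher or lower in a mimic library where the ratio of RPKM passed 1.3-fold, with RPKM above 1 in both libraries, and over all genes tested 11.9% were higher and 12.7% lower in the miR-106b library. For miR-93 these background shares were 15.1% higher and 15.6% lower, and for miR-25 they were 19.3% higher and 22.6% lower. At 2-fold the shares lower were 1.33%, 2.56% and 5.01% in that order. The median ratio over all genes tested was 0.998, 0.999 and 0.992 in that order.

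The cardiomyocyte markers were more often lower than higher in the mimic libraries. Of 28 tested, 10 were lower and 1 higher under miR-106b, 15 lower and 3 higher under miR-93, and 24 lower and 2 higher under miR-25, at a median ratio of 0.871, 0.716 and 0.520. The control library gave them the highest share of summed RPKM, 8.64%, against 7.73%, 6.07% and 7.07%. Actc1 had 7073 RPKM in the control library and 5034, 2733 and 4953 in the others, so the control value was the highest of the 4. Ankrd1 was likewise highest in the control library, at 2753 against 1736, 871 and 1976. Nppa did not keep this order, at 1860.4 against 1607, 261 and 4425, and neither did Myl2, at 6838 against 7223, 4994 and 3249.6. Desmin was at 641 against 460.0, 358 and 858, higher with miR-25 than in the control library.

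Of the 14 Z-disc genes 13 were lower with miR-93 and 0 higher, at a median ratio of 0.472. With miR-106b 8 and with miR-25 9 of the 14 were lower, and 0 and 1 higher. Of 11 thick filament genes tested 10 were lower with miR-25, at a median ratio of 0.555, against 2 each with miR-106b and miR-93. Of the fibroblast markers 10 of 18 tested were lower under miR-106b, 10 of 19 under miR-93 and 12 of 19 under miR-25, and 0, 0 and 1 were higher. The smooth muscle list held 0.238% in the control library and 0.223%, 0.212% and 0.713% in the others, and in the miR-25 library Tagln had 1306 RPKM.

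The scarce lists stayed scarce in every library. Endothelial markers held between 0.00924% and 0.0122% of the summed RPKM over the 4 libraries and macrophage markers between 0.00770% and 0.0119%. Atrial genes held 0.0212% in the control library and 0.0410%, 0.0724% and 0.0165% in the others, and Myl7 had 18.8 RPKM in the first and 81.2, 155 and 11.6 in the others. Of the 18 proliferation genes 1 was higher and 16 lower with miR-25. With miR-106b 10 were higher and 1 lower, and with miR-93 9 were higher and 2 lower. Over all genes tested 22.6% were lower with miR-25, and 11.9% and 15.1% were higher with miR-106b and miR-93. The share of the proliferation genes was 0.107% in the control library and 0.152%, 0.137% and 0.0668% in the others. All comparisons use the same control library, and differences between cultures that do not come from the mimics cannot be told apart from effects of the mimics.

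**Figure D5:**
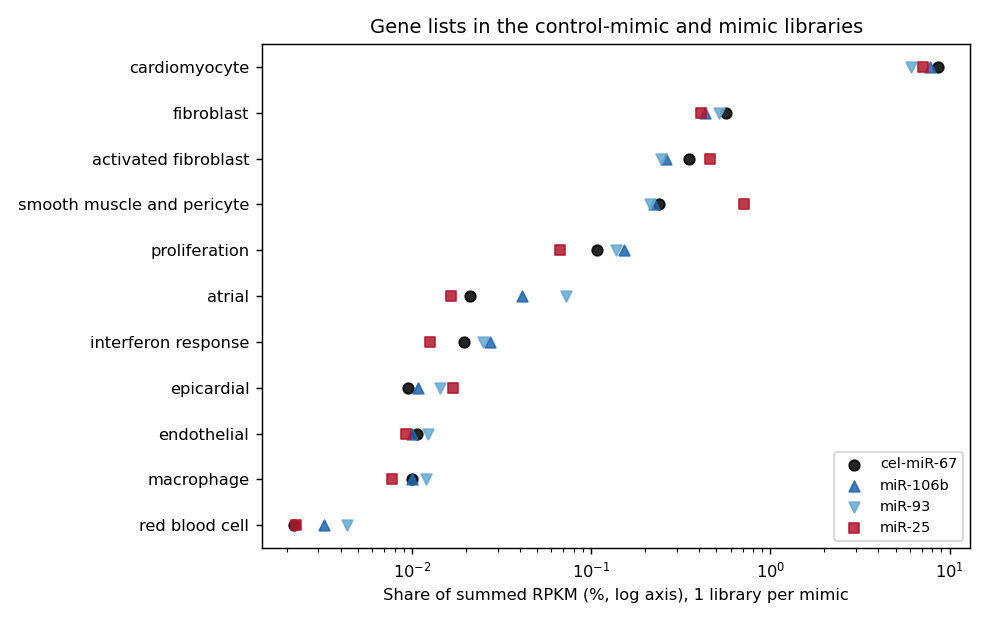
Share of summed RPKM (percent, logarithmic axis) of 11 gene lists in the control-mimic library (circles) and in the 3 mimic libraries, 1 library each and so without error bars. The cardiomyocyte share is highest in the control library at 8.64%, and endothelial, macrophage and red cell lists stay near or below 0.01% in all 4.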

How the data were processed

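RNA of 4 cultures, 1 per mimic, was sequenced, and per the labels the authors deposited RPKM values per gene, with STAR 2.7, edgeR and the rat build Rnor_6.0 named in the submitters' processing notes. How reads matching several genes were counted, and whether strand was used, is not given in the sources used here. The 4 tables of single samples hold the same values as the series table, and 0 columns were left unmapped.

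Whole reads were recovered from the deposited RPKM for all 15731 genes, from ratios between libraries that are ratios of whole numbers, with a common factor restored for 654 genes. In simulated data 96.4% of 15571 genes were recovered exactly. A common factor that also divides the gene length is not restored, so some recovered counts are too small. Intervals are 95% exact Poisson for levels and Clopper-Pearson for shares of reads and isoform ratios, and 3 reads set the upper limit for a gene at 0. The 176 symbols listed more than once were left out of lists and pairs. With 1 library per mimic no test was run. Scripts ran in Python 3.11.15 with scipy 1.17.1 for intervals, pandas 2.3.3 for tables, numpy 2.4.6, and matplotlib 3.10.9 for plots. Alternatives were shares of reads, a minimum of 1 RPKM, the mitochondrial genome or the highest member left out, a pseudocount of 1 RPKM and a 2-fold threshold.

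The lists, pairs and rules were chosen with earlier results of these data known. Genes named are the 30 highest, both members of each pair, up to 8 highest, the lowest and the absent members of each list, and Col1a1, Tnnt2, Actc1, Myh6 and Myh7. Some of these genes are not reported here. Other members were named for their role after their values were seen.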

Additional observations from a re-analysis of the deposited data

How the results depend on the processing

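By reads in place of RPKM the 10, 100 and 1000 highest genes held 11.5%, 27.3% and 58.8%, and with the mitochondrial genome left out 11.0%, 28.8% and 63.4% of the RPKM. The cardiomyocyte share was 7.63% of reads, 8.68% over genes above 1 RPKM, 9.65% without the mitochondrial genome and 6.64% without Actc1. The fibroblast share was 1.01% of reads, 0.629% without the mitochondrial genome and 0.334% without Sparc. The smooth muscle share was 0.247%, 0.265% and, without Tagln, 0.102% in the same order. The endothelial share was 0.0207% of reads, 0.0100% over genes above 1 RPKM, 0.0119% without the mitochondrial genome and 0.00628% without Eng. The macrophage share was 0.0108%, 0.00850%, 0.0111% and, without Lyz2, 0.00800% in that order. At 2-fold 1, 7 and 12 cardiomyocyte markers and 4, 1 and 7 fibroblast markers were lower in the libraries of miR-106b, then miR-93, then miR-25, where 1.33%, 2.56% and 5.01% of all genes tested were. With a pseudocount of 1 RPKM 12 pairs still had the adult form higher and 0 changed side. No paired analysis was possible because each mimic has 1 library and the labels give no replicate numbers.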
